A study of Homo sapiens with 18 samples.

Results

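The integrated stress response and the unfolded protein response were followed through 43 genes in NCI-H1299 cells, an established human lung cancer line. The genes were chosen by pathway and by name, at a time when the fold changes of these same libraries against the controls were already known. Their levels, their calls against the controls and their differences among the 4 TBX groups are therefore given as a description and support nothing. All 43 symbols matched 1 gene each among the 63677 Ensembl genes in the table of counts. Of the 43, 41 were among the 15576 genes with enough counts to be tested, while NUPR1 and GDF15 were not. By the arm of the response they are best known for, 25 were set down as ATF4/CHOP genes, 23 of them tested, and 17 as IRE1/ATF6 genes, all tested. EIF2AK3, the gene of the sensor PERK, was kept apart from both arms.

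The study asked which genes respond when the T-box transcription factors TBX2, TBX3, TBX4 and TBX5 are put back into lung cancer cells. RNA-seq counts covered 18 libraries in 6 groups of 3, which were cells transfected with plasmids for TBX2, TBX3, TBX4 or TBX5, cells given the empty vector (EV), and control cells labelled Ctl. Each TBX group was set against the 6 pooled control libraries, EV and Ctl together, so the 4 comparisons share their controls. The libraries held 7365221 to 11743179 counts. Human TBX2 and TBX4 carried a Flag tag in pORF plasmids, and human TBX3 and mouse Tbx5 carried an HA tag in pCGN plasmids, so TBX2 and TBX4 shared a tag and backbone, as did TBX3 and Tbx5, and other pairs of factors differed in them as well. All plasmids were given by transient Lipofectamine transfection, which reaches only some of the cells, and all groups come from this 1 line. The treatment of the Ctl cells was not stated, nor was the backbone of the empty vector in the EV libraries. The RNA came from the study's transfection experiments, whose assays were made at different times after transfection, and which of these times the sequenced RNA stands for was not given. For TBX4 replicate c, the label gives the TBX4 sample number with TBX5 as its ending.

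Each plasmid's own factor stood out in its libraries. TBX2 had 27704 to 47916 counts in the TBX2 libraries and at most 59 in any other. TBX3 had 135416 to 320890 counts in the TBX3 libraries, and the next highest library, TBX5 replicate a, had 119. TBX4 had 85197 to 109159 counts in the TBX4 libraries, replicate c being the lowest of them, and at most 19 elsewhere. The human TBX5 gene, on which reads of the mouse Tbx5 plasmid had to be counted, had 1161 to 1302 counts in the TBX5 libraries and at most 1 elsewhere, also in TBX4 replicate c. A gene without a symbol, ENSG00000266658, took 10.7% (TBX3 replicate c) to 53.5% (TBX5 replicate b) of a library's counts. Levels below are CPM, counts put on a common library size by TMM scaling, and 3 counts, taken as the smallest detectable level, equal 0.191 to 0.595 CPM. This floor covers counting error only, because PCR copies of a molecule were not told apart. Nothing in the labels says that replicates a, b and c were separate cultures, so p-values measure only the spread between these samples.

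The lung adenocarcinoma markers NKX2-1, SFTPB, SFTPC and SFTPA1 and the epithelial genes EPCAM, CDH1 and KRT19 were near 0. NAPSA, another such marker, averaged 0.425 CPM over the 6 controls and 0.955 CPM with TBX2, and was too low for the test. NKX2-1, a lung lineage factor, averaged 0.0705 CPM over the 6 controls, EPCAM 0.0836 CPM and CDH1 0.0331 CPM. KRT7 averaged 0.942 CPM. The keratins KRT8 and KRT18 averaged 37.7 and 70.2 CPM, and the mesenchymal genes VIM, CDH2 and FN1 averaged 897, 29.3 and 37.4 CPM. These markers differed between the groups too, KRT8 being called lower with TBX2 (log2 fold change -0.79), TBX3 (-0.45) and TBX4 (-0.23) and higher with TBX5 (0.26), and KRT18 lower with TBX2 (-0.56) and TBX3 (-0.41). VIM was called lower with TBX2 (-0.31) and TBX3 (-0.24), and CDH2 with TBX2 (-0.26), TBX4 (-0.23) and TBX5 (-0.25, not by DESeq2). FN1 was called higher with TBX2 (0.41), TBX4 (0.42) and TBX5 (0.5), and KRT7 with TBX2 (1.37). Their part in the levels of the stress genes was not tested. The markers searched for blood, endothelial and fibroblast cells were too low for the test, and PECAM1 was not matched.

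In the integrated stress response, kinases such as PERK phosphorylate the initiation factor eIF2, which lowers translation in general but raises translation of ATF4, and ATF4 with its target CHOP switches on genes for amino acid supply, redox balance, feedback and cell death. In the unfolded protein response, the endoplasmic reticulum (ER) sensors IRE1 and ATF6 act beside PERK, IRE1 by splicing XBP1 mRNA and ATF6 by releasing a transcription factor, and both raise chaperones and the machinery that degrades misfolded proteins. Gene counts show neither the splicing of XBP1 nor the translation of ATF4, so only mRNA levels of these genes and of their targets could be read.

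The arms are known for different promoter motifs, and 6 promoters are printed to show where these letters stand. RefSeq promoter windows of 300 bases (250 before the start site, 50 from it on), from GRCh38.p14, were found for 40 of the 43 members, and NUPR1, PSPH and SHMT2 had none. The counts themselves were made on GRCh37. Searched on both strands, the C/EBP-ATF response element TGATGNAAN matched in 5 of 22 ATF4/CHOP windows (22.7%), in 1 of 17 IRE1/ATF6 windows (5.88%) and in 3.61% of all 35116 windows. The ATF4/CHOP genes with a match were CHAC1, PPP1R15B, ASNS, SLC3A2 and SLC7A1. Capitals mark the match on either strand in CHAC1 (chr15:40953241-40953470, plus strand), PPP1R15B (chr1:204411818-204412047, minus strand) and ASNS (chr7:97872409-97872638, minus strand).
CHAC1: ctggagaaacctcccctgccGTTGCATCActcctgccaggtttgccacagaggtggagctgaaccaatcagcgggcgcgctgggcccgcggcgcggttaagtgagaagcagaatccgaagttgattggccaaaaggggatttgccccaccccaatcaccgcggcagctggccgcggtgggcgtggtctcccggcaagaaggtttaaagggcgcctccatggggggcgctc
PPP1R15B: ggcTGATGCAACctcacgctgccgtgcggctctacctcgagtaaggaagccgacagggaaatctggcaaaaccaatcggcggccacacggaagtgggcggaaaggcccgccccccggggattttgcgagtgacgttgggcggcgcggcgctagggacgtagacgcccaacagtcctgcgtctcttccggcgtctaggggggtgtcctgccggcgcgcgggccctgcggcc
ASNS: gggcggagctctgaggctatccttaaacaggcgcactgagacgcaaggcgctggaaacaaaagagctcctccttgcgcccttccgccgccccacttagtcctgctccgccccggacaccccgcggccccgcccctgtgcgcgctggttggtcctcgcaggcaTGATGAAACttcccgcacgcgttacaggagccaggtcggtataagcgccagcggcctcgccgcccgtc
Counted from the start site at 0, the match lay at -210 to -202 in CHAC1, at -227 to -219 in PPP1R15B and at -68 to -60 in ASNS.

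The ER stress element, CCAAT and CCACG 9 bases apart, matched in 5 of 17 IRE1/ATF6 windows (29.4%), in 0 of 22 ATF4/CHOP windows and in 0.0769% of all windows. The genes with it were XBP1, HSPA5, HSP90B1 (with 2 matches), CALR and CRELD2. A related element, ER stress element II (the second ER stress element in the plot of motif positions) with ATTGG and CCACG 1 base apart, matched in SDF2L1, HYOU1 (with 2 matches) and HERPUD1, which is 3 of 17 windows (17.6%) against 0.0541% of all. The stretches of XBP1 (chr22:28800570-28800799, minus strand), HSPA5 (chr9:125241344-125241573, minus strand) and HERPUD1 (chr16:56931912-56932141, plus strand) have the matches in capitals.
XBP1: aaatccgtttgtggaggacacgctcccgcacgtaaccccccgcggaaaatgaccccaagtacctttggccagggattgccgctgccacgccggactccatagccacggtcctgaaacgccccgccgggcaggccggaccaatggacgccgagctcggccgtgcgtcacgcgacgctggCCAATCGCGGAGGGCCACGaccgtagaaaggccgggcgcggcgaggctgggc
HSPA5: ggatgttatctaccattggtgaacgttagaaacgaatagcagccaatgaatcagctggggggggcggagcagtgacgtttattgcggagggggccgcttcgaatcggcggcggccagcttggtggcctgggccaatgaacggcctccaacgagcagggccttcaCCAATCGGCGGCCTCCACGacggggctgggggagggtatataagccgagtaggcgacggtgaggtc
HERPUD1: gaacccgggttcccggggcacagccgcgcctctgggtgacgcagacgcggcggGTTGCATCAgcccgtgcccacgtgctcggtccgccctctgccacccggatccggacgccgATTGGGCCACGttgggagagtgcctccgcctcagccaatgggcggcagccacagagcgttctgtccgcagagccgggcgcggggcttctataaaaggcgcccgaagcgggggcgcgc
The ER stress element lay at -52 to -34 in XBP1 and at -66 to -48 in HSPA5. HERPUD1 was the only IRE1/ATF6 gene with the C/EBP-ATF response element, at -177 to -169, and it also had ER stress element II at -117 to -107. The XBP1/ATF6 motif TGACGTGG matched in HYOU1 alone (0.729% of all windows), at -188 to -181, where it overlaps an ER stress element II match at -185 to -175. The T-box motif AGGTGTGA matched in 1 of the 40 members' windows, HSP90B1 (2.5% against 0.98% of all windows), at 22 to 29. A match describes letters in a window and is no measured site, and a window without a match says nothing about the factor.

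**Figure D1:**
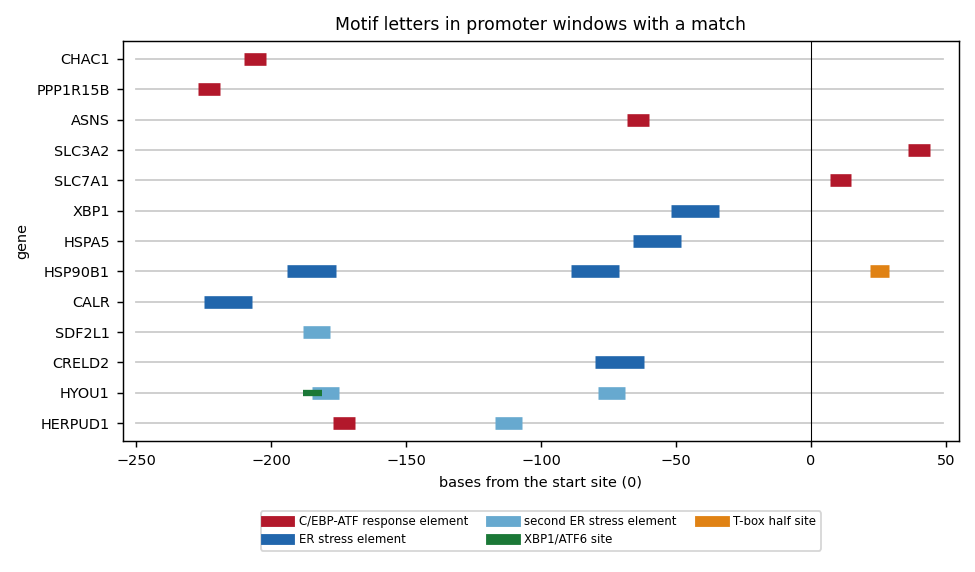
Motif matches in the 300-base promoter windows of the members, by distance from the start site in bases, for members with at least 1 match. C/EBP-ATF response elements stand in 5 ATF4/CHOP genes and HERPUD1, and ER stress elements in IRE1/ATF6 genes.

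Before any comparison, the members' levels spanned a wide range. Per kb of transcript, the 6 controls averaged 78.3 CPM per kb for CALR, an ER chaperone, 51.6 for ATF4 and 30.1 for PDIA4, a disulfide isomerase. PSAT1, a serine synthesis enzyme, was at 27.6 CPM per kb, SLC7A5, an amino acid exchanger, at 25.3, HSP90B1 at 25 and HSPA5 at 21. The sensors were low, with ERN1, which encodes IRE1, at 0.548 CPM per kb and EIF2AK3 at 0.344, while ATF6 was at 3.06. GDF15 (0.118) and NUPR1 (0.00642) closed the list.

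Counted by direction, a gene was called when the adjusted p of edgeR's quasi-likelihood test, adjusted by the Benjamini-Hochberg method over all 15576 tested genes was under 0.1. With TBX2, 32 of the 41 tested members were called higher, where 17% of all tested genes were, and 0 were called lower, where 15.6% of all were. At an unadjusted p under 0.05 the lower count was 1, the bZIP factor ATF5, and DESeq2 called 0 lower. ATF5 (-0.28 against the pooled controls) was called lower with TBX2 against Ctl alone (-0.38), with ENSG00000266658 left out (-0.29), without EV replicate c (-0.33) and without TBX2 replicate b (-0.37). With TBX3, 20 members were called higher (8.47% of all tested genes) and 2 lower (6.4%), the latter being ATF5 and PDIA4. With TBX4, 12 were called higher (6.97% of all) and 1 lower (6.07%), which was CEBPG, a bZIP partner of ATF4. With TBX5, 11 were called higher (6.55% of all) and 3 lower (6.12%), namely ATF5, CEBPG and PSAT1. The median log2 fold change of the 41 members was 0.41 for TBX2, 0.21 for TBX3, 0.16 for TBX4 and 0.12 for TBX5, next to -0.001, -0.002, -0.006 and -0.003 over all tested genes. With each library left out in turn, 26 of the 32 calls with TBX2, 11 of 22 with TBX3, 6 of 13 with TBX4 and 3 of 14 with TBX5 were kept every time. These are averages over all cells of a culture, in which fewer cells with a high level and less RNA per cell cannot be told apart.

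The pooled controls were not alike for these genes. Between EV and Ctl, 5 members were called higher in EV (0.282% of all tested genes) and 0 lower (0.103%), by edgeR's quasi-likelihood test. At an unadjusted p under 0.05, 21 of the 41 were higher and 0 lower, where 4.93% and 4.26% of all tested genes were. DESeq2 called 4 higher and 0 lower, where it called 0.128% and 0.0642% of all. The log2 fold change of EV over Ctl was above 0 for 38 of the 41, with a median of 0.22 against 0.001 over all tested genes. The 5 called were DDIT3, TRIB3, SESN2, ASNS and HSP90B1, and 2 of them, DDIT3 and TRIB3, kept their call in each of the 6 fits without 1 library. The SESN2 and HSP90B1 calls were each lost in 3 of these 6 fits (SESN2 without Ctl replicate a, EV replicate a or EV replicate c, and HSP90B1 without Ctl replicate b, EV replicate a or EV replicate b), SESN2 also with DESeq2, and the ASNS call without Ctl replicate b. DDIT3, the gene of CHOP, was higher in EV by a log2 fold change of 0.96 ± 0.12 (SE), in 3 of 3 EV libraries (adjusted p 9.74e-05, edgeR's quasi-likelihood test, Benjamini-Hochberg). The value for TRIB3, a pseudokinase that restrains ATF4 and CHOP, was 0.71 ± 0.12, again in 3 of 3 EV libraries (adjusted p 0.00487, same edgeR test). The pooled controls join both kinds, so values against EV alone are given below for several members. The backbone of EV was not given, so EV is not known to match the plasmid of each factor.

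**Figure D2:**
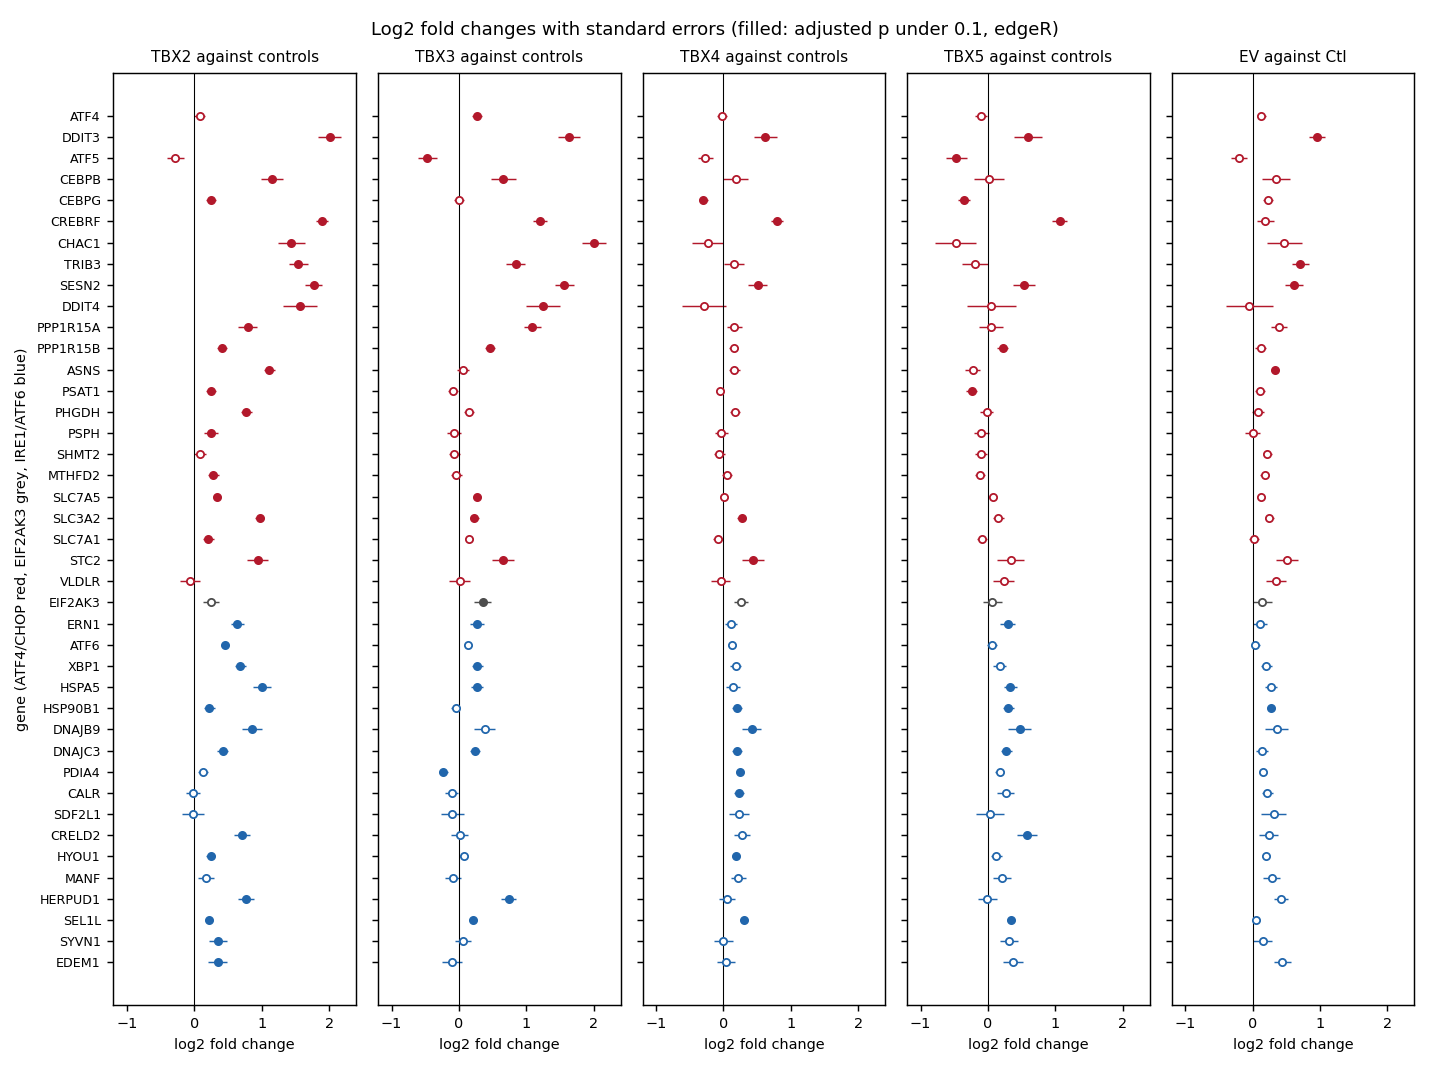
Log2 fold change with its SE for each tested member, by arm, in the 4 TBX comparisons and for EV against Ctl. Of the 41 members, 32 were called higher with TBX2, 20 with TBX3, 12 with TBX4, 11 with TBX5 and 5 in EV.

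Among the ATF4/CHOP transcription factors, ATF4 itself moved little. ATF4 counts were 118, 119 and 150 CPM in the Ctl libraries, 142, 144 and 137 in EV, 126, 166 and 135 in TBX2, 155, 175 and 157 in TBX3, 138, 136 and 126 in TBX4 and 106, 149 and 124 in TBX5. Control and TBX libraries overlapped for TBX2, TBX4 and TBX5, and the 3 TBX3 libraries were above all 6 controls. The log2 fold change was 0.27 ± 0.07 (SE) with TBX3, where ATF4 was called higher, 0.08 ± 0.08 with TBX2, -0.02 ± 0.07 with TBX4 and -0.11 ± 0.09 with TBX5. Without TBX3 replicate b the TBX3 value was 0.21 and no longer called. The table holds 4 numbered ATF4 pseudogenes, so some reads of ATF4 may have been counted elsewhere or not at all.

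CHOP, a transcription factor that ATF4 induces, behaved otherwise. DDIT3 counts were 6.27, 6.3 and 6.74 CPM in the Ctl libraries, 12.8, 13.3 and 11.7 in EV, 34.4, 45.2 and 34.9 in TBX2, 24.1, 32.3 and 31.4 in TBX3, 14.8, 14.6 and 14.5 in TBX4 and 12.1, 16.1 and 16 in TBX5. The TBX2 and TBX3 libraries were above every other library, the 3 Ctl libraries were the lowest, and TBX5 replicate a lay within the EV range. DDIT3 had a log2 fold change of 2.01 ± 0.17 (SE) with TBX2, 1.63 ± 0.16 with TBX3, 0.62 ± 0.17 for TBX4 and 0.59 ± 0.21 for TBX5, called higher in each. Against the EV libraries alone it was 1.63 with TBX2 and 1.23 with TBX3, still called, but 0.23 with TBX4 and 0.2 with TBX5, not called. Against the Ctl libraries alone DDIT3 gave 2.58, 2.19, 1.18 and 1.16 in the same order, all called. DESeq2 called it with neither TBX4 nor TBX5, and 5 of the 9 fits without 1 library lost the TBX5 call. Exons of DDIT3 overlap those of MARS1 and MBD6 over 31.6% of their length, and the unstranded count cannot divide such reads.

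CREBRF, which encodes a regulator of the CREB3 group of ER stress factors, was called higher with all 4 TBXs. CREBRF counts were 8.14, 8.7 and 9.02 CPM in the Ctl libraries, 10.9, 10.2 and 8.93 in EV, 32.3, 35.4 and 36 in TBX2, 20, 22.9 and 20.9 in TBX3, 16.2, 16.5 and 15.3 in TBX4 and 17, 21.4 and 20.7 in TBX5. Every TBX library was above every control library, and EV and Ctl overlapped. The log2 fold change was 1.9 ± 0.09 (SE) with TBX2, 1.2 ± 0.1 with TBX3, 0.79 ± 0.09 for TBX4 and 1.06 ± 0.11 for TBX5. Against EV alone these were 1.81, 1.1, 0.7 and 0.97, all called.

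CEBPB, a bZIP factor that pairs with CHOP, ran from 2.28 to 3.96 CPM in the controls, from 6.55 to 7.63 with TBX2 and from 4.36 to 6.19 with TBX3, in both above every control. It was called higher with TBX2 (log2 fold change 1.15 ± 0.16, SE) and TBX3 (0.66 ± 0.18), while TBX4 and TBX5 overlapped the controls. The CEBPB call with TBX3 was lost against EV alone (0.49) and without TBX3 replicate b. CEBPG ran from 45.7 to 59.5 CPM in the controls, from 60.7 to 61.8 with TBX2, from 38.5 to 44.8 with TBX4 and from 34.3 to 46.6 with TBX5. The gene was thus called in opposite directions, higher with TBX2 (0.25 ± 0.07) and lower with TBX4 (-0.3 ± 0.07) and TBX5 (-0.36 ± 0.09). Against EV alone CEBPG gave 0.15 with TBX2, not called, and -0.42 and -0.46 with TBX4 and TBX5, called. Against Ctl alone it gave 0.37 with TBX2, called, and -0.18 and -0.24 with TBX4 and TBX5, not called, so neither kind of control alone gave calls in both directions. The TBX4 call was also lost without TBX4 replicate b, and the TBX5 call without TBX5 replicate b or c. ATF5, a relative of ATF4, ran from 7.34 to 9.05 CPM in the controls and was called lower with TBX3 and TBX5, at -0.47 in each, with single libraries of both groups inside the control range. Both ATF5 calls were lost against EV alone (-0.38 and -0.37), the TBX3 call also without TBX3 replicate c, and the TBX5 call with DESeq2 and in 4 of the 9 fits without 1 library. NUPR1, a small stress-induced chromatin protein, had 0 to 3 counts in a library and was not tested.

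**Figure D3:**
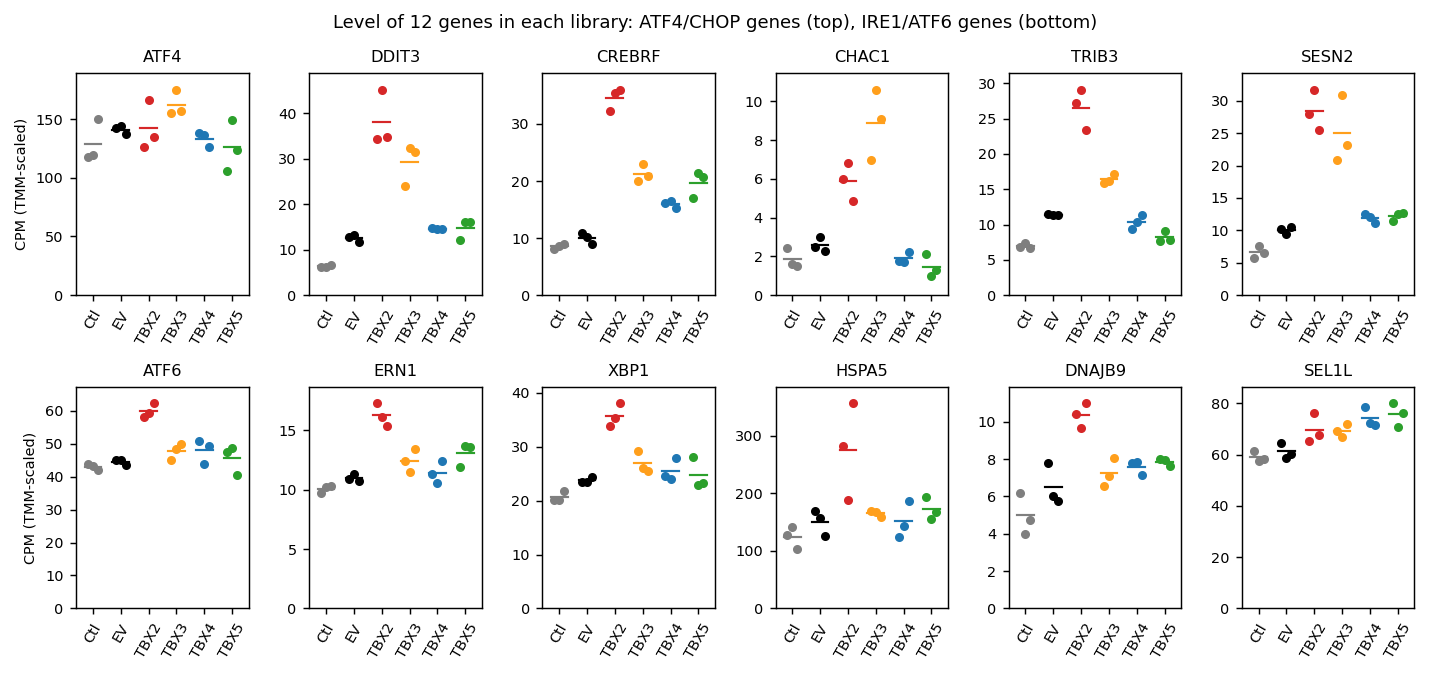
CPM of selected members in each of the 18 libraries by group, with group means; each panel's vertical axis starts at 0. DDIT3 ran from 6.27 CPM in Ctl to 45.2 CPM with TBX2, and HSPA5 from 103 CPM in Ctl to 357 CPM with TBX2.

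The 6 feedback and cell fate genes of the ATF4/CHOP arm were all called higher with TBX2 and with TBX3, next to 17% and 8.47% of all tested genes. DESeq2 called 6 and 5 of them and gave DDIT4 no adjusted p with TBX3. In these groups their median log2 fold changes were 1.49 and 1.17, next to 0.16 with TBX4 and 0.04 with TBX5. For SESN2, the Ctl libraries gave 5.69, 7.54 and 6.55 CPM, EV gave 10.2, 9.45 and 10.5, TBX2 28, 31.7 and 25.5, TBX3 20.8, 30.9 and 23.2, TBX4 12.5, 12.1 and 11.2 and TBX5 11.4, 12.5 and 12.7. SESN2, a stress-induced inhibitor of mTORC1, was highest in the TBX2 and TBX3 libraries, and the TBX4 and TBX5 libraries lay just above EV. Its log2 fold change was 1.77 ± 0.13 (SE) with TBX2, 1.56 ± 0.14 with TBX3, 0.51 ± 0.14 for TBX4 and 0.53 ± 0.16 for TBX5. Against EV alone, SESN2 gave 0.24 with TBX4 and 0.26 with TBX5, and neither was called, while against Ctl alone both were (0.85 and 0.87). The TBX5 call was also lost without TBX5 replicate b or c.

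CHAC1, which encodes an enzyme that degrades glutathione, had the largest fold change of the members with TBX3. The CHAC1 level was 2.45, 1.6 and 1.49 CPM in Ctl and 2.51, 3.01 and 2.3 in EV, and the TBX2 libraries had 5.97, 6.84 and 4.87, TBX3 6.95, 10.6 and 9.07, TBX4 1.76, 1.71 and 2.22 and TBX5 2.11, 0.992 and 1.3. The TBX3 libraries were the highest, TBX2 came next, and TBX4 and TBX5 were within or below the control range. CHAC1 had a log2 fold change of 2 ± 0.18 (SE) with TBX3 and 1.44 ± 0.2 with TBX2, called higher in both. For TRIB3, the Ctl libraries gave 6.76, 7.37 and 6.74 CPM, EV gave 11.5, 11.3 and 11.4, TBX2 27.2, 29.1 and 23.4, TBX3 15.9, 16.1 and 17.2, TBX4 9.37, 10.4 and 11.4 and TBX5 7.66, 9.13 and 7.82. For TRIB3 the TBX2 libraries were highest, TBX3 followed, and TBX4 and TBX5 lay above Ctl, with TBX4 replicate c within the EV range and the others below it. TRIB3 was called higher with TBX2 (1.54 ± 0.14) and TBX3 (0.84 ± 0.14). With TBX5 it gave -0.19 against the pooled controls, not called, -0.49 against EV alone, called lower, and 0.22 against Ctl alone, not called, so its direction turned with the kind of control. The direction of TRIB3 turned with TBX4 too. There it gave 0.16 against the pooled controls and -0.14 against EV alone, not called, and 0.56 against Ctl alone, called higher.

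PPP1R15A and PPP1R15B encode the stress-induced and the constant partner of the phosphatase that removes the phosphate from eIF2. PPP1R15B counts were 43.2, 42.5 and 35.4 CPM in the Ctl libraries, 42.2, 47.5 and 42.5 in EV, 57.8, 53.4 and 56.8 in TBX2, 59.8, 54.3 and 59.1 in TBX3, 46.7, 45.7 and 49.2 in TBX4 and 51, 46.4 and 49.3 in TBX5. All TBX2 and TBX3 libraries were above all controls for PPP1R15B, and TBX5 overlapped EV. PPP1R15B had a log2 fold change of 0.41 ± 0.07 (SE) with TBX2, 0.46 ± 0.07 with TBX3 and 0.22 ± 0.08 with TBX5, called higher in each, and 0.15 with TBX4, not called. With TBX4 it was called higher against Ctl alone (0.22) and without EV replicate b (0.19). The TBX5 call was lost against EV alone (0.16), with DESeq2 and in 8 of the 9 fits without 1 library. Scaling by library totals shifted the median of all tested genes by -0.31 with TBX5, and PPP1R15B at -0.09 stayed above that shift, as did ERN1 and HSP90B1, each at -0.02, and DNAJC3 at -0.03. PPP1R15A ran from 14.6 to 25.9 CPM in the controls, from 29.6 to 43.8 with TBX2 and from 34.5 to 56.6 with TBX3. It was called higher with TBX2 (0.79 ± 0.14) and TBX3 (1.09 ± 0.13), with every library of both groups above the controls. DDIT4, another mTORC1 inhibitor, was low, at 0.784 to 1.61 CPM in the controls against 2.87 to 4.33 with TBX2 and 2.23 to 3.62 with TBX3. The calls for DDIT4 were higher with TBX2 (1.57 ± 0.25) and TBX3 (1.25 ± 0.25), while TBX4 and TBX5 overlapped the controls.

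Of the 6 amino acid and one-carbon genes of the ATF4/CHOP arm, 5 were called higher with TBX2 (17% of all tested genes). In 3 of them all TBX2 libraries were above every control. How many of all tested genes stood apart in this way was not counted. With TBX3, TBX4 and TBX5, 0 were called higher, where 8.47%, 6.97% and 6.55% of all tested genes were. At an unadjusted p under 0.05 the higher counts there by edgeR were 0, 2 and 0, and DESeq2 called 0 in each. ASNS counts were 71.8, 69.1 and 67.1 CPM in the Ctl libraries, 84.8, 86.9 and 89.2 in EV, 172, 161 and 173 in TBX2, 75, 73.2 and 93.9 in TBX3, 90, 83.6 and 90.1 in TBX4 and 83, 56.7 and 56.6 in TBX5. ASNS, asparagine synthetase, was at least at 161 CPM in the TBX2 libraries and at most at 93.9 CPM elsewhere, and 2 of the 3 TBX5 libraries were below every control. ASNS had a log2 fold change of 1.11 ± 0.08 (SE) with TBX2, 0.06 with TBX3, 0.16 for TBX4 (0.34 and called higher against Ctl alone, 0.21 and called higher without EV replicate c) and -0.23 for TBX5 (-0.46 and called lower without TBX5 replicate a), and against EV alone the last was -0.39, called lower, but against Ctl alone -0.06, not called. PHGDH, which starts serine synthesis, ran from 17.7 to 20.1 CPM in the controls and from 29.2 to 36.3 with TBX2, and was called higher there (0.77 ± 0.08). PSAT1, the next enzyme of that route, was called higher with TBX2 (0.25 ± 0.07) and lower with TBX5 (-0.24 ± 0.08), the latter called against EV alone (-0.29) but not against Ctl alone (-0.18), nor without EV replicate c or TBX5 replicate b or c. PSPH, its last enzyme, and MTHFD2, a mitochondrial folate enzyme, were called higher with TBX2 at 0.25 ± 0.1 and 0.28 ± 0.08, and both overlapped the controls. The PSPH call was lost against EV alone, against Ctl alone, with DESeq2 and in 4 of the 9 fits without 1 library. SHMT2, a mitochondrial enzyme that passes on 1-carbon units from serine, was called in 0 of the 4 comparisons, with 43.5 to 61.7 CPM over the 18 libraries. ASNS and MTHFD2 have 5 and 7 numbered pseudogenes in the table, which could have taken some of their reads.

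The 3 amino acid transporters of the arm had 3, 2, 1 and 0 calls higher in the TBX2, TBX3, TBX4 and TBX5 groups, and DESeq2 gave the same counts. Of all tested genes, 17%, 8.47%, 6.97% and 6.55% were called higher there. Whether TBX2 differed from the other groups over this set was not tested. For SLC3A2, the Ctl libraries gave 59.9, 57.1 and 54.8 CPM, EV gave 64.9, 67.2 and 71.5, TBX2 121, 131 and 115, TBX3 70.8, 69.2 and 78.9, TBX4 77.9, 74.1 and 75.1 and TBX5 74.1, 68.9 and 64.9. SLC3A2, the heavy chain shared by several exchangers, was at least at 115 CPM in the TBX2 libraries and at most at 78.9 CPM in any other, so that group stood apart. Its log2 fold change was 0.97 ± 0.07 (SE) with TBX2, 0.23 ± 0.07 with TBX3 and 0.27 ± 0.07 with TBX4, called higher in each, and 0.15 with TBX5, not called. Against EV alone it gave 0.85 with TBX2, still called, and 0.11 and 0.15 with TBX3 and TBX4, not called. Against Ctl alone all 3 calls were kept, and SLC3A2 was also called higher with TBX5 (0.28). The TBX3 call was also lost without Ctl replicate b or TBX3 replicate c. SLC7A5, its light chain for large neutral amino acids, ran from 112 to 131 CPM in the controls, from 146 to 159 with TBX2 and from 143 to 146 with TBX3, and was called higher in both (0.33 ± 0.06 and 0.27 ± 0.06). SLC7A1, a transporter of cationic amino acids, was called higher with TBX2 (0.21 ± 0.08), with TBX2 replicate b inside the control range. That call was lost against EV alone (0.2), against Ctl alone (0.22) and without TBX2 replicate a or c. With TBX3 it gave 0.15, not called, but 0.18 and called higher without EV replicate b.

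Of the secreted proteins and the receptor, STC2 and VLDLR were tested. The STC2 level was 3.73, 3.46 and 3.77 CPM in Ctl and 4.8, 5.58 and 5.23 in EV, and the TBX2 libraries had 9.65, 8.25 and 7.47, TBX3 7.73, 6.49 and 6.75, TBX4 5.45, 5.68 and 7.22 and TBX5 6.77, 3.97 and 5.58. STC2, a secreted glycoprotein, was lowest in Ctl, TBX2 and TBX3 overlapped each other above all controls, and TBX4 and TBX5 overlapped EV. STC2 had a log2 fold change of 0.94 ± 0.16 (SE) with TBX2, 0.65 ± 0.16 with TBX3 and 0.44 ± 0.16 with TBX4, called higher in each, and 0.34 with TBX5, not called. Against EV alone the TBX3 (0.41) and TBX4 (0.21) calls of STC2 were lost, and the TBX4 call was also lost with DESeq2 and in 5 of the 9 fits without 1 library. VLDLR, a lipoprotein receptor that PERK signalling induces, ran from 7.44 to 12.4 CPM over all 18 libraries and was called in 0 comparisons. GDF15, a stress-induced cytokine, had 1 to 19 counts in a library, at 0.812 to 1.91 CPM with TBX2 and 0.0888 to 0.457 CPM in the controls, and was too low for the test.

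The IRE1/ATF6 arm starts with its sensors. ERN1 counts were 9.71, 10.2 and 10.3 CPM in the Ctl libraries, 10.9, 11.3 and 10.7 in EV, 17.3, 16.1 and 15.4 in TBX2, 12.4, 11.5 and 13.4 in TBX3, 11.3, 10.6 and 12.4 in TBX4 and 11.9, 13.7 and 13.6 in TBX5. For ERN1 the TBX2 libraries were the highest, EV and TBX4 overlapped, and the 3 libraries each of TBX3 and TBX5 were above all controls by little. ERN1 had a log2 fold change of 0.64 ± 0.09 (SE) with TBX2, 0.27 ± 0.1 with TBX3 and 0.29 ± 0.11 with TBX5, called higher in each, and 0.11 with TBX4, not called. The ERN1 calls with TBX3 and TBX5 were each lost against EV alone, against Ctl alone, with DESeq2 and in 7 of the 9 fits that left out 1 library. For ATF6, the Ctl libraries gave 43.8, 43.2 and 41.9 CPM, EV gave 44.9, 44.9 and 43.4, TBX2 58, 59.4 and 62.3, TBX3 44.9, 48.3 and 49.9, TBX4 50.9, 43.9 and 49.2 and TBX5 47.4, 48.8 and 40.6. ATF6 was higher with TBX2 than in every other library, the TBX3 libraries lay just above all controls, and TBX4 and TBX5 overlapped them. Its log2 fold change was 0.45 ± 0.06 (SE) with TBX2, where it was called higher, 0.13 ± 0.06 with TBX3 and 0.13 with TBX4, the last being 0.2 and called higher without TBX4 replicate b.

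XBP1 counts were 20.2, 20.2 and 21.7 CPM in the Ctl libraries, 23.4, 23.4 and 24.4 in EV, 33.8, 35.4 and 38.1 in TBX2, 29.2, 26.1 and 25.5 in TBX3, 24.6, 24 and 27.9 in TBX4 and 28.1, 22.8 and 23.3 in TBX5. XBP1 is the factor whose mRNA IRE1 splices. The TBX2 libraries were above all others, the TBX3 libraries were above all controls, and TBX4 and TBX5 overlapped EV. XBP1 was called higher with TBX2 (0.68 ± 0.08, SE) and TBX3 (0.27 ± 0.08), and the latter call was lost against EV alone (0.17) and without TBX3 replicate a. With TBX4 it gave 0.18, not called, but 0.29 and called higher against Ctl alone and 0.23 and called higher without EV replicate c. The EIF2AK3 level was 7.16, 6.3 and 6.84 CPM in Ctl and 8.23, 6.65 and 7.53 in EV, and the TBX2 libraries had 7.81, 9.16 and 8.28, TBX3 7.86, 9.35 and 9.63, TBX4 7.77, 9.19 and 8.7 and TBX5 7.66, 8.33 and 6.33. EIF2AK3 overlapped the controls in every TBX group, with single EV and Ctl libraries above single TBX libraries. It was called higher with TBX3 alone (0.35 ± 0.12), a call lost with DESeq2, against EV alone (0.27) and in 4 of the 9 fits without 1 library.

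Among the 10 ER chaperones and folding genes, HSPA5, which encodes BiP, the chaperone that keeps the sensors inactive, had the largest fold change with TBX2. HSPA5 counts were 128, 141 and 103 CPM in the Ctl libraries, 169, 157 and 126 in EV, 282, 189 and 357 in TBX2, 170, 167 and 159 in TBX3, 125, 143 and 186 in TBX4 and 194, 156 and 167 in TBX5. The TBX2 libraries were far apart from each other, replicate c being the highest of the 18 and replicate b the lowest of its group, and all 3 were above every control. TBX3, TBX4 and TBX5 overlapped the EV libraries. HSPA5 had a log2 fold change of 1 ± 0.13 (SE) with TBX2, 0.27 ± 0.09 with TBX3 and 0.33 ± 0.1 with TBX5, called higher in each, and 0.14 with TBX4, not called. The TBX3 and TBX5 calls were lost against EV alone (0.14 and 0.2) and with DESeq2, and were kept against Ctl alone (0.41 and 0.48). Of the 9 fits without 1 library, 5 lost the TBX3 call and 2 the TBX5 call (without TBX5 replicate a or c).

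For HSP90B1, the Ctl libraries gave 305, 299 and 287 CPM, EV gave 373, 371 and 333, TBX2 346, 376 and 424, TBX3 316, 330 and 305, TBX4 374, 374 and 388 and TBX5 383, 421 and 412. HSP90B1, the ER form of HSP90, was lowest in Ctl and TBX3, and its TBX4 and TBX5 libraries were all above EV. Its log2 fold change was 0.3 ± 0.08 (SE) with TBX5, 0.2 ± 0.07 with TBX4 and 0.22 ± 0.08 with TBX2, called higher in each, and -0.05 with TBX3. Against EV alone HSP90B1 gave 0.17, 0.07 and 0.09 with TBX5, TBX4 and TBX2, not called, and -0.18 with TBX3, called lower. Against Ctl alone it gave 0.45, 0.35 and 0.36, all called, and 0.09 with TBX3, not called. Of the 9 fits without 1 library, 6 lost the TBX4 call and 2 the TBX2 call (without Ctl replicate b or TBX2 replicate c). The DNAJB9 level was 6.18, 3.99 and 4.76 CPM in Ctl and 7.77, 6.01 and 5.74 in EV, and the TBX2 libraries had 10.4, 9.66 and 11, TBX3 6.55, 7.09 and 8.08, TBX4 7.77, 7.86 and 7.13 and TBX5 7.99, 7.94 and 7.63. DNAJB9, a BiP cofactor and a target of spliced XBP1, was highest with TBX2, and Ctl replicate a stood with the EV libraries. DNAJB9 had a log2 fold change of 0.86 ± 0.15 (SE) with TBX2, 0.42 ± 0.14 with TBX4 and 0.47 ± 0.17 with TBX5, called higher in each, and 0.38 with TBX3, not called, though it was called there against Ctl alone (0.57), without EV replicate a (0.47) and in 1 edgeR fit of all 18 libraries (0.39). Its TBX4 and TBX5 calls were lost against EV alone (0.25 and 0.3) and with DESeq2, and in 4 and 7 of the 9 fits without 1 library, and were kept against Ctl alone (0.61 and 0.67).

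DNAJC3, an ER cochaperone also known as an inhibitor of eIF2 kinases, was called higher with all 4 TBXs. For DNAJC3, the Ctl libraries gave 21.7, 21.6 and 19.1 CPM, EV gave 22, 24.5 and 22.4, TBX2 27.7, 29.1 and 31.5, TBX3 25.8, 25.3 and 26.4, TBX4 25.9, 24.5 and 25.3 and TBX5 27.7, 25.8 and 25.5. Every TBX library was above every control, by a margin smaller than the spread within the controls for the lowest of them. DNAJC3 had a log2 fold change of 0.42 ± 0.08 (SE) with TBX2, 0.24 ± 0.08 with TBX3, 0.2 ± 0.07 for TBX4 and 0.27 ± 0.08 for TBX5. Against EV alone DNAJC3 gave 0.36 with TBX2, still called, and 0.17, 0.13 and 0.21 with TBX3, TBX4 and TBX5, not called, while against Ctl alone all 4 were called. DESeq2 lost the calls with TBX4 and TBX5, and of the 9 fits without 1 library, 2 lost the TBX3 call (without TBX3 replicate a or c), 7 the TBX4 call and 1 the TBX5 call (without TBX5 replicate a).

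The other folding genes were called in fewer comparisons. PDIA4 ran from 88.9 to 110 CPM in the controls, from 79.6 to 90.1 with TBX3 and from 111 to 121 with TBX4. It was called lower with TBX3 (-0.23 ± 0.07, SE) and higher with TBX4 (0.24 ± 0.06), and its 3 TBX3 libraries were below its 3 TBX4 libraries. Against EV alone PDIA4 gave -0.31 with TBX3, still called lower, and 0.16 with TBX4, not called. Against Ctl alone it gave -0.14 with TBX3, not called, and 0.32 with TBX4, called, so the calls in both directions needed the pooled controls. The TBX3 call was also lost without TBX3 replicate c. With TBX5 PDIA4 gave 0.17, not called, but 0.26 and called higher both against Ctl alone and without TBX5 replicate a. CALR ran from 180 to 240 CPM in the controls and from 241 to 268 with TBX4, and was called higher there (0.23 ± 0.07). With TBX5 it gave 0.26, not called, but 0.49 and called higher without TBX5 replicate a, and 0.14 and 0.15 without replicates b and c. Against EV alone CALR was not called with TBX4 (0.12) and was called lower with TBX3 (-0.22), while against Ctl alone CALR was called with TBX4 (0.34) and not with TBX3 (0.01). The TBX4 call was lost in 4 of the 9 fits without 1 library. CRELD2, a secreted ER stress protein, ran from 6.08 to 8.59 CPM in the controls, from 10.6 to 11.8 with TBX2 and from 8.32 to 12.3 with TBX5, and was called higher in both (0.71 ± 0.12 and 0.58 ± 0.15), with TBX5 replicate a inside the control range. The CRELD2 call with TBX5 was lost against EV alone (0.47) and without TBX5 replicate b. With TBX4 CRELD2 gave 0.28, not called, but was called higher against Ctl alone (0.41) and without EV replicate b (0.35). HYOU1, a BiP exchange factor, was called higher with TBX2 (0.24 ± 0.07) and TBX4 (0.19 ± 0.06), both calls being lost against EV alone (0.15 and 0.1) and the latter also without Ctl replicate b or TBX4 replicate a or b. With TBX5 it gave 0.12, not called, but 0.25 and called higher without TBX5 replicate a. SDF2L1, which binds ER cochaperones, ran from 3.33 to 6.35 CPM over the 18 libraries, MANF, a secreted ER protein, ran from 8.92 to 15.3 CPM, and neither was called in any comparison with the pooled controls, though MANF was called higher with TBX4 against Ctl alone (0.37).

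Among the ER-associated degradation genes, SEL1L, the adaptor of the HRD1 ubiquitin ligase, was called higher with all 4 TBXs. SEL1L counts were 61.4, 57.5 and 58.4 CPM in the Ctl libraries, 64.7, 58.9 and 60.4 in EV, 65.2, 76.3 and 67.7 in TBX2, 69.3, 66.8 and 71.9 in TBX3, 78.6, 72.5 and 71.6 in TBX4 and 80.2, 71 and 76.1 in TBX5. Every TBX library was above every control for SEL1L, with the TBX2 replicate a and EV replicate a libraries close together. SEL1L had a log2 fold change of 0.22 ± 0.06 (SE) with TBX2, 0.21 ± 0.06 with TBX3, 0.3 ± 0.06 for TBX4 and 0.34 ± 0.06 for TBX5, and against EV alone it was 0.2, 0.18, 0.27 and 0.31, all called. The TBX2 call was lost without TBX2 replicate b and the TBX3 call without TBX3 replicate c. The HERPUD1 level was 10.5, 12.2 and 9.42 CPM in Ctl and 14.2, 14.5 and 14.4 in EV, and the TBX2 libraries had 19.5, 20.8 and 24.8, TBX3 19.4, 20.8 and 22.4, TBX4 12.3, 12.5 and 14.6 and TBX5 11.9, 12.5 and 13.4. HERPUD1, a membrane protein of the same complex and the member with motifs of both arms, was high with TBX2 and TBX3 and overlapped the controls with TBX4 and TBX5. The calls for HERPUD1 were higher with TBX2 (0.77 ± 0.12, SE) and TBX3 (0.74 ± 0.11). SYVN1, the ligase HRD1 itself, and EDEM1, which sorts misfolded glycoproteins, were called higher with TBX2 at 0.35 ± 0.13 and 0.35 ± 0.14, and both overlapped the controls. Both calls were lost against EV alone (0.28 and 0.15) and in 3 and 4 of the 9 fits without 1 library, and DESeq2 also lost that of SYVN1. With TBX5 they gave 0.31 and 0.37, not called, though EDEM1 was called higher with TBX5 against Ctl alone (0.61), without EV replicate c (0.45) and in 1 edgeR fit of all 18 libraries (0.39).

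The calls of the arms were also set side by side. With TBX2, 19 of 23 ATF4/CHOP genes and 13 of 17 IRE1/ATF6 genes were called higher, at median log2 fold changes of 0.77 and 0.35 (17% of all tested genes were called higher). With TBX3, 13 ATF4/CHOP genes were called higher and 1 lower at a median of 0.27, and 6 IRE1/ATF6 genes higher and 1 lower at a median of 0.07, where 8.47% of all tested genes were called higher and 6.4% lower. With TBX4, 5 ATF4/CHOP genes were called higher and 1 lower (median 0.05), while 7 IRE1/ATF6 genes were called higher (median 0.2), next to 6.97% of all tested genes called higher and 6.07% lower. With TBX5, 4 ATF4/CHOP genes were called higher and 3 lower (median -0.02), while 7 IRE1/ATF6 genes were called higher (median 0.27), next to 6.55% higher and 6.12% lower over all tested genes. In TBX4 and TBX5, 0 IRE1/ATF6 genes were called lower by edgeR's quasi-likelihood test, also 0 at an unadjusted p under 0.05 and 0 by DESeq2. Between EV and Ctl the medians of both arms were 0.22, so the arms did not part there.

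Against EV alone, 1 IRE1/ATF6 gene was called with TBX4 and 1 with TBX5, in place of 7 and 7, and SEL1L was called in both. For the ATF4/CHOP arm against EV alone, 2 of the 6 calls with TBX4 were kept, 1 higher and 1 lower. With TBX5 3 of the 7 were kept and TRIB3 and ASNS were newly called lower, so the arm had 1 gene higher and 4 lower in place of 4 and 3. With TBX2, 16 of the 19 ATF4/CHOP calls and 9 of the 13 IRE1/ATF6 calls were kept against EV alone, and with TBX3 10 of 14 and 3 of 7. In TBX3 the IRE1/ATF6 calls turned to 2 higher and 3 lower against EV alone (HSP90B1, PDIA4 and CALR), in place of 6 and 1. Against Ctl alone, 17, 13, 9 and 5 ATF4/CHOP genes were called higher with TBX2, TBX3, TBX4 and TBX5, and 1 lower with each, ATF5. The IRE1/ATF6 calls against Ctl alone were 14, 6, 10 and 8, all of them higher. Over all tested genes, 14.5% were called higher and 12.2% lower with TBX2 against EV alone, 6.6% and 5.58% with TBX3, 4.82% and 4.45% with TBX4, and 4.56% and 4.4% with TBX5. Against Ctl alone the shares were 13.9% and 11.9%, 6.42% and 4.25%, 6.21% and 5.43%, and 4.33% and 3.33%.

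The difference between the arms was also taken in each library, as the median log2 deviation of the ATF4/CHOP genes from the mean of the 6 controls minus that of the IRE1/ATF6 genes. It was 0.239, 0.224 and 0.072 in the TBX2 libraries and 0.165, 0.155 and 0.218 in the TBX3 libraries. TBX4 gave -0.192, -0.06 and -0.121, and TBX5 gave -0.188, -0.276 and -0.281. The controls ran from -0.09 to 0.124, so all TBX3 libraries and 2 of the TBX2 libraries were above them, all TBX5 libraries and 2 of the TBX4 libraries were below them, and TBX2 replicate c and TBX4 replicate b were within their range. From the fold changes of the pooled libraries, the ATF4/CHOP median minus the IRE1/ATF6 median was 0.42 for TBX2, 0.19 for TBX3, -0.15 for TBX4, -0.29 for TBX5 and 0 for EV over Ctl. Without TBX2 replicate b the value of 0.42 was 0.13, and it was 0.06 without CHAC1 and DDIT4, the 2 tested members with under 10 counts in some library. Without these 2 genes the TBX4 value of -0.15 was -0.05.

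**Figure D4:**
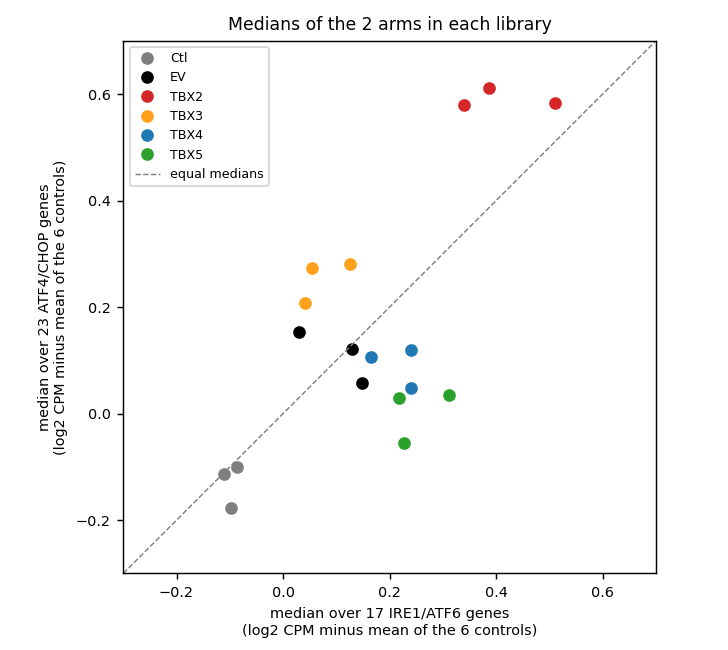
Median log2 deviation from the 6 controls of the 23 tested ATF4/CHOP genes against that of the 17 IRE1/ATF6 genes, 1 point per library. TBX2 and TBX3 libraries lie on the ATF4/CHOP side of equality and TBX4 and TBX5 libraries on the IRE1/ATF6 side.

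With TBX2 both medians were above all controls, at 0.579, 0.611 and 0.583 for the ATF4/CHOP genes and 0.34, 0.387 and 0.511 for the IRE1/ATF6 genes over its 3 libraries. In TBX5 the ATF4/CHOP median was 0.029, 0.035 and -0.055, near the controls, and the IRE1/ATF6 median was 0.217, 0.311 and 0.227. The EV libraries had IRE1/ATF6 medians of 0.148, 0.13 and 0.03, and the Ctl libraries -0.11, -0.087 and -0.097.

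**Figure D5:**
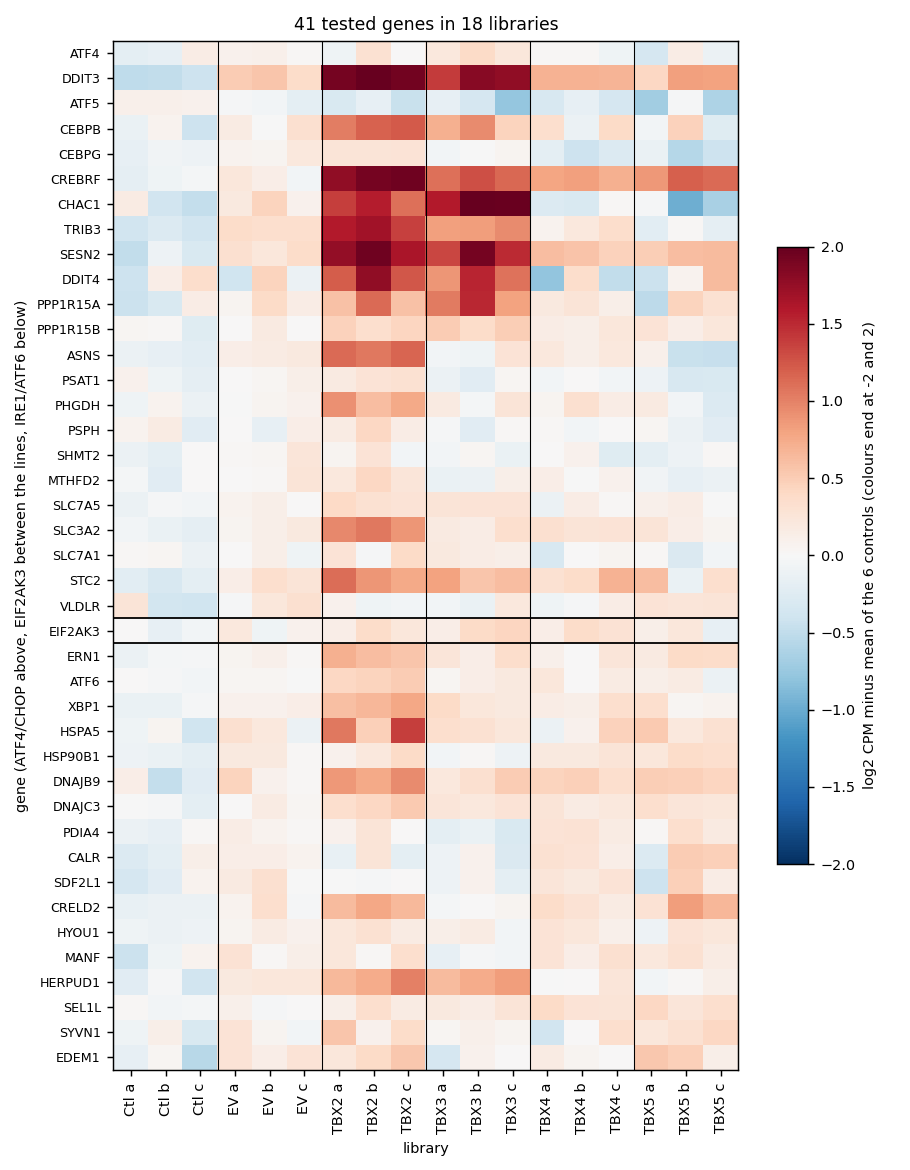
Log2 deviation of every tested member from the mean of the 6 controls in each of the 18 libraries, ordered by arm and role. DDIT3 and SESN2 are highest in the TBX2 and TBX3 libraries, CREBRF is highest with TBX2 while TBX3 and TBX5 overlap, and most members are higher in EV than in Ctl.

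Differences among the 4 TBX groups were taken from 1 fit of all 18 libraries and, like the fold changes they come from, describe the chosen members. By edgeR's quasi-likelihood test, 29 of the 41 were called different (22.7% of all tested genes), 19 of 23 in the ATF4/CHOP arm and 10 of 17 in the IRE1/ATF6 arm. CHAC1 differed by up to 2.47 on the log2 scale, with all 3 TBX3 libraries above all 3 TBX5 libraries. TRIB3 differed by up to 1.72, its 3 TBX2 libraries being above all 3 TBX5 libraries. ASNS differed by up to 1.34 and HSPA5 by up to 0.86, and the 3 TBX2 libraries of ASNS were above the other 9 TBX libraries. SEL1L and DNAJC3, called with every TBX, were not called different among them, at largest differences of 0.13 and 0.21. EIF2AK3 was not called either, at 0.28.

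Called higher with all 4 TBXs were DDIT3, CREBRF, SESN2, DNAJC3 and SEL1L, 5 of the 41, where 1.21% of all tested genes were. Called lower with all 4 were 0 members by edgeR's quasi-likelihood test, where 1.24% of all tested genes were, and DESeq2 also gave 0. At an unadjusted p under 0.05, 1 member was lower with all 4, ATF5, at log2 fold changes of -0.28, -0.47, -0.27 and -0.47. All 4 comparisons use the same 6 control libraries, so a shift in these controls moves all 4. By DESeq2, 3 of the 5 (CREBRF, SESN2 and SEL1L) were called higher with all 4. CREBRF and SEL1L were also called with every TBX against EV alone.

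The calls were also counted by promoter match, with no test of a difference. Of all tested genes, 17%, 8.47%, 6.97% and 6.55% were called higher with TBX2, TBX3, TBX4 and TBX5. Those called lower were 15.6%, 6.4%, 6.07% and 6.12%. The 5 ATF4/CHOP genes with the C/EBP-ATF response element had 5, 3, 1 and 1 calls higher with TBX2, TBX3, TBX4 and TBX5, and the 16 tested genes without it had 13, 10, 4 and 3. The calls lower, 1, 1 and 3 with TBX3, TBX4 and TBX5, were among the 16 without it. The median log2 fold changes were 0.97, 0.23, 0.15 and -0.09 with a match and 0.78, 0.46, 0.11 and 0.03 without, so the order of the 2 sets turned between the factors. DDIT3, CREBRF, SESN2 and TRIB3 were among those without a match in the window. The 8 IRE1/ATF6 genes with an ER stress element of either kind had 6, 3, 3 and 3 calls higher, and the 9 without had 7, 3, 4 and 4, with 1 lower call, PDIA4 with TBX3. DNAJB9, DNAJC3 and SEL1L had no match.

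Other genes of the pathways were counted from a list of 96, of which 94 were tested. With TBX2, 34 were called higher and 8 lower, with TBX3 12 and 4, with TBX4 10 and 4, with TBX5 10 and 8, and in EV over Ctl 2 and 0. Over all tested genes the shares called higher and lower were 17% and 15.6% with TBX2, 8.47% and 6.4% with TBX3, 6.97% and 6.07% with TBX4, and 6.55% and 6.12% with TBX5. The 94 gave 36.2% and 8.51%, 12.8% and 4.26%, 10.6% and 4.26%, and 10.6% and 8.51% in the same order, so with TBX3, TBX4 and TBX5 they lay within a few points of the background. The lower count of 0 in EV came with 1 at an unadjusted p under 0.05 by edgeR and 0 by DESeq2. The median log2 fold change of the 94 was 0.1 with TBX2 and 0.02 with each of TBX3, TBX4 and TBX5.

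Among the eIF2 kinases besides PERK, EIF2AK2, which responds to double-stranded RNA, averaged 103 ± 7.66 CPM (SD, n = 6) in the controls and 183 ± 16.2 (SD, n = 3) with TBX2. EIF2AK2 was called higher there (log2 fold change 0.82) and in no other TBX group. EIF2AK4, the amino acid sensor GCN2, was called lower with all 4 TBXs, at -0.19, -0.29, -0.21 and -0.21. EIF2AK1, the haem-regulated kinase, was called lower with TBX2 (-0.45), TBX4 (-0.27) and TBX5 (-0.26). Shares called lower among all tested genes were 15.6%, 6.4%, 6.07% and 6.12% with TBX2, TBX3, TBX4 and TBX5, and 1.24% with all 4. Shares called higher were 17%, 8.47%, 6.97% and 6.55%. Of the 8 eIF2 and eIF2B subunits, EIF2B2 was called higher and EIF2B5 lower with TBX5 (DESeq2 called EIF2B2 alone), and 0 were called in the other comparisons, with 1, 2 and 1 of them past an unadjusted p of 0.05 for TBX2, TBX3 and TBX4 and 0 for EV by edgeR, and 0 in each by DESeq2.

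The tRNA synthetases, many of them ATF4 targets, gave 9 of 12 called higher with TBX2, 2 with TBX3 (AARS and CARS) and 2 called lower with TBX5 (GARS and IARS). Of all tested genes, 17% and 8.47% were called higher with TBX2 and TBX3 and 6.12% lower with TBX5. DESeq2 called 8 higher with TBX2, and with TBX3 2 higher and also 2 lower (IARS and LARS). AARS, which charges alanine tRNA, averaged 109 ± 3.44 CPM (SD, n = 6) in the controls and 177 ± 5.42 (SD, n = 3) with TBX2, and was called higher at 0.69. CARS, for cysteine, was called higher at 0.8 with TBX2 and 0.32 with TBX3.

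Of 20 other ATF4 or CHOP targets tested, 14 were called higher and 2 lower with TBX2, 6 and 1 with TBX3, 3 and 1 with TBX4, and 2 and 3 with TBX5. In shares these were 70% and 10%, 30% and 5%, 15% and 5%, and 10% and 15%, next to 17% and 15.6%, 8.47% and 6.4%, 6.97% and 6.07%, and 6.55% and 6.12% of all tested genes. DESeq2 called 13 and 2, 5 and 1, 1 and 1, and 1 and 1. ATF3, a stress-induced bZIP factor, averaged 2.64 ± 0.24 CPM in Ctl, 4.67 ± 0.349 in EV, 12.3 ± 1.25 with TBX2 and 12.1 ± 2.61 with TBX3 (SD, n = 3 each). It was called higher with TBX2 (1.74) and TBX3 (1.71), and in EV over Ctl (0.81, a call that DESeq2 did not make), but with TBX4 (0.01) and TBX5 (0.28) it was not. SLC7A11, the cystine importer, averaged 23.3 ± 2.58 CPM (SD, n = 6) in the controls and 56.5 ± 1.17 (SD, n = 3) with TBX2. SLC7A11 was called higher with TBX2 (1.28) and TBX3 (0.36) and lower with TBX5 (-0.3), the last not by DESeq2. ADM2, a secreted peptide, was called higher with TBX2 alone (1.69).

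On the ER side, 1, 0, 2 and 4 of 16 other chaperones and folding enzymes were called higher with TBX2, TBX3, TBX4 and TBX5, and 1, 1, 0 and 0 lower, namely TXNDC5 with TBX2 (-0.4) and DNAJC10 with TBX3 (-0.21), of which DESeq2 called DNAJC10 alone. The higher shares were 6.25%, 0%, 12.5% and 25%, where 17%, 8.47%, 6.97% and 6.55% of all tested genes were called higher. For the lower counts here and in the groups that follow, 15.6%, 6.4%, 6.07% and 6.12% of all tested genes were called lower. The counts of 0 by edgeR were also 0 at an unadjusted p under 0.05 and 0 by DESeq2. ERO1LB, an ER oxidase, averaged 2.59 ± 0.505 CPM (SD, n = 6) in the controls, 7.25 ± 1.32 with TBX2 and 4.58 ± 0.453 with TBX5 (SD, n = 3 each), and was called higher in both (1.44 and 0.84). Among 23 other degradation and translocation genes, 6, 2, 4 and 1 were called higher and 2, 1, 0 and 0 lower with TBX2, TBX3, TBX4 and TBX5, the lower counts of 0 by edgeR being 0 at an unadjusted p under 0.05 and 0 by DESeq2 as well. The higher shares of these 23 genes were 26.1%, 8.7%, 17.4% and 4.35% in the same order, next to 17%, 8.47%, 6.97% and 6.55% of all tested genes. DESeq2 called 5, 0, 2 and 1 of the 23 higher. UFM1, a ubiquitin-like modifier, was called higher with all 4, at 0.65, 0.22, 0.23 and 0.4, while DESeq2 called it with TBX2 and TBX5 alone. By edgeR, 1.21% of all tested genes were called higher with all 4. Of 12 other ATF6 and IRE1 pathway genes, 3, 2, 1 and 2 were called higher with TBX2, TBX3, TBX4 and TBX5 (25%, 16.7%, 8.33% and 16.7%), DESeq2 calling 0 with TBX3, and 1, 0, 1 and 0 lower, the lower counts of 0 by edgeR's test staying 0 at an unadjusted p under 0.05 and by DESeq2. The lower calls were TMBIM6, an ER membrane protein, with TBX2 (-0.15) and CREBZF, a bZIP protein, with TBX4 (-0.29), where BBC3, a cell death gene, had the largest change (-0.55) and was not called. CREB3L2, an ER-bound relative of ATF6, was called higher with TBX2 (0.44), TBX4 (0.28) and TBX5 (0.43), and PMAIP1, a cell death gene, with TBX2 (0.85), TBX3 (0.63, not by DESeq2) and in EV over Ctl (0.83).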

How the data were processed

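The counts are those the authors deposited, 1 value per Ensembl gene and library, without normalization. According to the submitters, reads were converted with bcl2fastq 1.8.4 and aligned with STAR 2.3.0 to GRCh37, and the study's methods name featureCounts at default settings, and by default it does not use strand. A gene was tested if at least 10 of the 18 libraries held more than 5 counts of it. Each TBX was compared with the 6 pooled controls in a separate fit by the quasi-likelihood test of edgeR 4.0.16 (R 4.3.3) with TMM scaling and Benjamini-Hochberg adjustment over all tested genes, at a false-discovery rate of 0.1. EV and Ctl were compared in the same way, and the 4 TBX groups by an F test in 1 fit of 18 libraries. The SE of a log2 fold change is its absolute value over the square root of F. CPM used 1 TMM scaling over the 18 libraries, and log2 CPM a prior count of 2. Symbols were matched for 43 of 43 members, 96 of 96 other pathway genes and 24 of 25 cell markers.

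The members, arms and lists were chosen with earlier results of these data known. All 18 values are given for the factors and sensors ATF4, DDIT3, XBP1, ATF6, ERN1, EIF2AK3 and HSPA5. They are also given for members called higher in at least 3 of the 4 TBX comparisons. CEBPG, called higher in 1 and lower in 2, is given by its ranges. All 18 values of CHAC1, TRIB3, ASNS and HERPUD1 were added after their values were seen. Other pathway genes are named from among the largest changes of each group, or as the few called lower, chosen after their values were seen.

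Other settings tried were DESeq2 1.42.0 as the test, its size factors or library totals as scaling, a filter of 10 counts in all 18 libraries or none, replicate letters as blocks, a single kind of control, 1 edgeR fit for everything, leaving out single libraries, an adjusted p under 0.05, a minimum absolute log2 change of 1, and means in place of medians. Leaving out the gene ENSG00000266658, and leaving out libraries with over 45% of their counts on it, were added after seeing the data. The methods were tested on simulated data.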

Additional observations from a re-analysis of the deposited data

How the results depend on the processing

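Leaving out 1 library at a time, the members called in the ATF4/CHOP arm numbered 18 to 20 with TBX2, 12 to 15 with TBX3, 4 to 8 with TBX4, 1 to 7 with TBX5 and 3 to 7 for EV against Ctl. Those of the IRE1/ATF6 arm numbered 10 to 13, 3 to 7, 2 to 8, 4 to 7 and 0 to 3. The ATF4/CHOP median minus the IRE1/ATF6 median ran from 0.13 to 0.46 with TBX2, from 0.15 to 0.22 with TBX3, from -0.18 to -0.1 with TBX4, from -0.34 to -0.25 with TBX5 and from -0.07 to 0.04 for EV. Among the 4 TBX groups, 26 to 31 members differed. Of 1722 fold changes of single members with 1 library left out, 1581 kept their side of the threshold, 121 lost their call and 20 gained one. Among called values, 0 turned their direction. A turn of sign in a value that was not called was not counted. The libraries that moved a count by over 1.5 times were these. In the IRE1/ATF6 arm with TBX4, the 7 calls became 4, 2 and 4 without Ctl replicates a, b and c, and 2 and 3 without TBX4 replicates a and b. With TBX3 the 7 calls became 3 without replicate a or c. With TBX5 the 7 IRE1/ATF6 calls became 4 without replicate b or c, and the 7 ATF4/CHOP calls became 4 without Ctl replicate b or c, 2 without TBX5 replicate b and 1 without TBX5 replicate c. For EV against Ctl, the 1 IRE1/ATF6 call became 0 without Ctl replicate b, EV replicate a or EV replicate b, and 3 without Ctl replicate c, where the ATF4/CHOP calls became 7 in place of 4. The TBX2 difference between the arms, 0.42, became 0.25 and 0.13 without TBX2 replicates a and b. Calls over all tested genes changed too. With TBX4, 1086 higher and 945 lower became 948 and 821 without Ctl replicate b, and 706 and 529 without TBX4 replicate a. With TBX3, 1319 and 997 became 1017 and 623 without replicate a, and 946 and 835 without replicate c. With TBX5, 1021 and 954 became 687 and 552 without replicate b, and 592 and 475 without replicate c. For EV, 44 and 16 became 15 and 7 without Ctl replicate b, and 131 and 99 without Ctl replicate c.

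With EV alone as controls, ATF4/CHOP calls with TBX4 were 2 in place of 6 and IRE1/ATF6 calls 1 in place of 7, and IRE1/ATF6 calls with TBX5 were 1 in place of 7. With Ctl alone, ATF4/CHOP calls with TBX4 were 10. The TBX2 difference between the arms was 0.34 with either control alone. Fewer libraries enter both kinds of fit, with EV alone and with Ctl alone, and with Ctl alone the IRE1/ATF6 calls with TBX4 were 10. What moved these counts was not tested.

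Library totals in place of TMM shifted the median log2 fold change of all tested genes by 0.01 with TBX2, -0.08 with TBX3, 0.25 with TBX4, -0.31 with TBX5 and 0.2 in EV. Calls over all tested genes were then 833 higher and 220 lower with TBX2, against 2651 and 2428 with TMM, 35 and 0 with TBX3, against 1319 and 997, 2775 and 33 with TBX4, against 1086 and 945, 37 and 54 with TBX5, against 1021 and 954, and 16 and 1 in EV, against 44 and 16. ATF4/CHOP calls were 12 with TBX2, 5 with TBX3, 0 with TBX5 and 2 in EV, and IRE1/ATF6 calls were 6, 0, 0 and 0, while with TBX4 the latter were 13. Among the TBX groups, 13 members differed. With TBX5 the log2 fold changes of PPP1R15B (-0.09), ERN1 (-0.02), HSP90B1 (-0.02) and DNAJC3 (-0.03) were reversed, and all 4 were above the shift of -0.31. TBX5 replicates b and c, with 53.5% and 52.7% of their counts on ENSG00000266658, enter this scaling with that gene included. Without the libraries in which that gene held over 45%, an alternative chosen after seeing the data that leaves 1 TBX5 library, assumed to vary like the others, TBX5 gave 3 ATF4/CHOP and 2 IRE1/ATF6 calls and a difference between the arms of -0.19.

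DESeq2 in place of edgeR called 4 ATF4/CHOP and 3 IRE1/ATF6 genes with TBX5. With no filter, IRE1/ATF6 calls were 4 with TBX3 and 2 in EV. With at least 10 counts in every library, which leaves 38 of the 40 tested genes of the arms (without CHAC1 and DDIT4), the difference between the arms was 0.06 with TBX2 and -0.05 with TBX4. With means in place of medians it was 0.39 with TBX3. In 1 edgeR fit, EV against Ctl gave 2 ATF4/CHOP and 0 IRE1/ATF6 calls. At an adjusted p under 0.05, IRE1/ATF6 calls were 2 with TBX4 and 0 in EV, and ATF4/CHOP calls with TBX5 were 3. At an adjusted p under 0.1 with a minimum absolute log2 change of 1, ATF4/CHOP calls were 8, 6, 0, 1 and 0 with TBX2, TBX3, TBX4, TBX5 and in EV, IRE1/ATF6 calls 1, 0, 0, 0 and 0, and 9 members differed among the TBX groups. The stricter limits lower counts by construction, and for the others the cause was not tested.

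With the replicate letter as a block, IRE1/ATF6 calls were 4 with TBX4 and 0 in EV. The residuals of libraries with the same letter had a mean r of 4e-04 (-0.101 to 0.16), against -2e-04 (-0.156 to 0.177) for other pairs. On average the letters showed no pairing of the samples, but a mean cannot exclude pairing in some groups or genes. Whether the block corrects anything is not known.

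Over the other settings, 2164 of 2448 fold changes of single members kept their side of the threshold, 241 lost their call and 39 gained one. In 4 a called value turned its direction. A value called in neither fit was counted as kept even where its sign turned. TRIB3 with TBX5, at -0.19 against the pooled controls and 0.22 against Ctl alone, was such a value. At this depth, CHAC1, DDIT4 and CEBPB had as few as 5, 6 and 14 counts in a library. The SE of a log2 fold change reached 0.25 for DDIT4 with TBX2, against 0.06 for SEL1L, so a difference of the size called for SEL1L was not detectable in DDIT4.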
